A study of Mus musculus with 24 samples.

Results

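Acetylcholine is made in the mouse retina by 1 class of interneuron, the starburst amacrine cells. The genes described here are 3 transmitter genes of these cells and 7 genes for neuronal nicotinic acetylcholine receptor subunits. The transmitter genes are *Chat*, *Slc18a3* and *Slc5a7*, and the subunit genes are *Chrna3*, *Chrna4*, *Chrna5*, *Chrna6*, *Chrnb2*, *Chrnb3* and *Chrnb4*. They were chosen by name for their role in cholinergic signalling, and they are 10 of the 56748 genes in the deposited table. All 10 had enough reads to be tested in every comparison.

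Starburst amacrine cells release acetylcholine together with GABA and are known for their part in direction selectivity. ChAT joins choline and acetyl-CoA, the vesicular transporter encoded by *Slc18a3* loads acetylcholine into synaptic vesicles, and the choline transporter encoded by *Slc5a7* takes choline back up into the terminal. Nicotinic receptors are cation channels of 5 subunits. The alpha4 and alpha6 subunits usually pair with beta2, alpha3 pairs with beta2 or beta4, and alpha5 and beta3 are accessory subunits that need other subunits to form a channel. PRDM13 is a zinc finger protein that directs amacrine cells in the developing retina and acts with basic helix-loop-helix factors, which bind the E-box motif.

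PRDM13-OE mice were heterozygous for an inducible cassette in the *Rosa26* locus, on a C57BL/6J background, in which the ubiquitous EF-1α promoter drives rtTA and a TRE3G promoter drives HA-tagged human *PRDM13*. Neither promoter is specific to amacrine cells. PRDM13-OE mice and wildtype littermates either drank doxycycline (dox) at 2 mg/ml for 72 hours, in water that also held 10% sucrose, or were untreated, so sucrose went with dox and was absent from the untreated mice. Each of the 4 groups had 3 mice, and the neural retina and the remaining eye cup (RPE, choroid and sclera) of each mouse were sequenced as separate libraries, 24 in all. Untreated and dox-treated mice with the same number were different animals. The study used mice of both sexes, but the sex of each sequenced mouse is not given in the sources used here.

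Total counts ranged from 16034800 to 21513207 over the 12 retinas and from 15825059 to 24908314 over the 12 eye cups. Levels are given as counts scaled to library size and TMM factor within each tissue (CPM), and levels of different genes are compared only as the authors' FPKM, which is per length. The human transgene was not analysed here, so induction cannot be read from these values. Some libraries stood apart in genes of neighbouring tissue. The summed CPM of 9 lens crystallin genes was 12242 and 5381 in wildtype dox retinas 1 and 2, 143.7 in wildtype dox retina 3, and 30.5 to 49.9 in the PRDM13-OE dox retinas. Retinal RNA was also present in every eye cup, where the summed CPM of 7 rod genes ranged from 2673 in untreated wildtype mouse 2 to 42501 in wildtype dox mouse 1, against 46082 to 68577 in the retinas. In such bulk tissue, fewer cells of a type and less RNA per cell cannot be told apart.

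The 10 genes fall partly into clusters (coordinates in GRCm39). *Slc18a3* (ENSMUSG00000100241, chromosome 14, 32184395 to 32186807) has a single exon and lies within intron 1 of *Chat* (ENSMUSG00000021919, 32130160 to 32187946) on the same strand, an arrangement known as the cholinergic gene locus. *Chrna5* (ENSMUSG00000035594, chromosome 9, 54888164 to 54915063, plus strand), *Chrna3* (ENSMUSG00000032303, 54917395 to 54933846, minus strand) and *Chrnb4* (ENSMUSG00000035200, 54935438 to 54956063, minus strand) lie side by side within 67900 bases, with 2331 and 1591 bases between neighbours. *Chrnb3* (ENSMUSG00000031492, chromosome 8, 27858739 to 27889758) and *Chrna6* (ENSMUSG00000031491, 27893240 to 27903972) are 3481 bases apart. The unclustered members were *Slc5a7* (ENSMUSG00000023945, chromosome 17), *Chrna4* (ENSMUSG00000027577, chromosome 2) and *Chrnb2* (ENSMUSG00000027950, chromosome 3).

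*Chrnb4* and its nearest neighbour *Chrna3* are read from the same strand, and of these 2 only *Chrnb4* passed the test in the retina, so the 250 bases before the outermost GENCODE vM39 start of each are shown, 5′ to 3′ on the minus strand of the GRCm39 reference, with E-boxes (CANNTG, which reads the same on both strands) in capitals. Neither window overlaps an annotated exon.
Chrnb4 (chr9:54956077-54956326): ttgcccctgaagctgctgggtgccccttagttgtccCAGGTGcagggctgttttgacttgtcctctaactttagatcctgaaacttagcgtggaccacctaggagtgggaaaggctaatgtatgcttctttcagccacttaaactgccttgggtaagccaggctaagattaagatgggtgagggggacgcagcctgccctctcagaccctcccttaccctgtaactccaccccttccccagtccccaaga
Chrna3 (chr9:54933942-54934191): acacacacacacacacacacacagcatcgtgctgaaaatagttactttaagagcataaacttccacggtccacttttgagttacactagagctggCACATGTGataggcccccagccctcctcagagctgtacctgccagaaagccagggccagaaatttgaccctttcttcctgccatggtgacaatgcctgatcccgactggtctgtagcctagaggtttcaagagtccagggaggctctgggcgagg

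The *Chrnb4* window held 1 E-box and the *Chrna3* window 2 that overlap each other. Of the 21770 protein-coding genes, 66.5% held at least 1 E-box in the same window and 31.9% at least 2, so neither count is unusual. These matches are letters in the sequence and not evidence of binding.

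In the untreated wildtype retina, the alpha6 and beta3 transcripts were the most abundant of the 10 and the chromosome 9 cluster the least. *Chrna6* stood at 54.0 ± 5.96 FPKM (SD, n = 3), *Chrnb3* at 15.9 ± 2.06 and *Chrnb2* at 11.7 ± 0.58, and the ranges of these did not overlap with the next in order. *Slc18a3* (8.06 ± 1.11) and *Chrna4* (7.23 ± 0.39) followed with overlapping ranges, as did *Slc5a7* (3.64 ± 0.25) and *Chat* (3.63 ± 0.41). The chromosome 9 cluster closed the order, with *Chrna3* at 2.34 ± 0.24, *Chrna5* at 2.02 ± 0.72 and *Chrnb4* at 1.47 ± 0.19 FPKM, whose ranges overlapped between neighbours. The retina thus held the high levels of *Chrna6* and *Chrnb3* transcripts at the chromosome 8 cluster and low levels at chromosome 9.

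Markers of the cells in question were present. Starburst amacrine markers other than these members (*Megf10*, *Fezf1*, *Sox2* and *Isl1*) were read in all 12 retinas, *Fezf1* lowest at 23 to 57 counts. *Sox2* and *Isl1* are also used by other retinal cells. Over the 4 genes the sum ran from 146.4 to 185.8 CPM, and in the PRDM13-OE dox retinas (151.7 to 185.8) it spanned the range of the wildtype dox retinas (158.1 to 171.4). Between these groups 1 of the 4, *Sox2*, was higher by adjusted p, at 0.36 ± 0.09 on the log2 scale (SE; adjusted p = 0.0181, edgeR), and none was lower. The 7 pan-amacrine genes all had log2-fold changes below 0, and 2 were lower by adjusted p, with a sum of 1212 to 1235 CPM in PRDM13-OE dox and 1339 to 1409 in wildtype dox. Of 10 retinal ganglion cell genes 9 were below 0 and 3 were lower by adjusted p, with sums of 1345 to 1458 and 1453 to 1736 CPM. Their part in the members' results was not tested.

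The comparison of PRDM13-OE with wildtype retinas under dox asks what the transgene changes when both genotypes drink dox. *Chrnb4*, the beta4 subunit, fell to 42.0% of its wildtype level and was the only one of the 10 members called, where a call needed an adjusted p below 0.05 together with a log2-fold change beyond 1 in size. The call was lost when the summed crystallin, RPE and pigment, or ciliary body and iris genes entered as a covariate (−0.83, −0.64 and −0.53 on the log2 scale). These sums and that of the rod genes were lower in the same PRDM13-OE dox retinas. None of the covariate sums overlapped between these groups, so such fits separate covariate from genotype poorly. Another 4 members fell by less than that cutoff at an adjusted p under 0.05: *Chrna5*, *Slc5a7*, *Chrnb3* and *Chrna6*. Leaving out 1 library at a time kept an adjusted p under 0.05 in 6 of 6 fits for *Slc5a7* and *Chrnb3*, in 4 of 6 for *Chrna6* (up to 0.0772) and in 3 of 6 for *Chrna5* (up to 0.0793). The other 5 members, *Chat* and *Slc18a3* among them, did not pass. All tests were edgeR quasi-likelihood tests with Benjamini-Hochberg adjustment over all 20560 genes tested, of which 2.41% were called in either direction and 7.51% were lower by adjusted p alone.

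**Figure D1:**
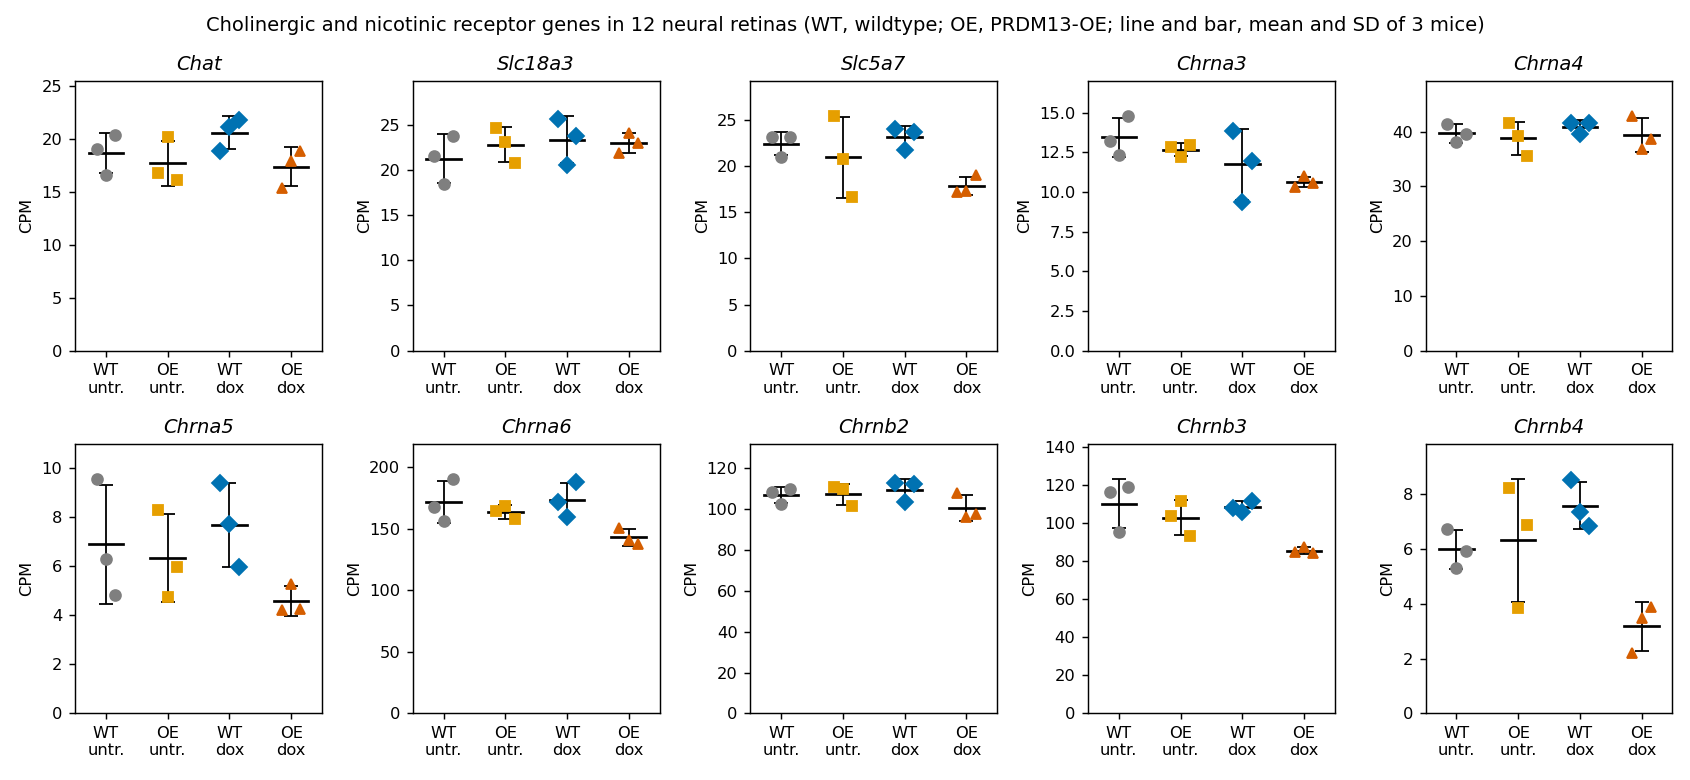
Level of each of the 10 genes in the 12 neural retinas (CPM, y axis from 0), with 1 point per mouse in 4 groups along the x axis, and a line and bar for the mean and SD of 3 mice. In the *Chrnb4* panel the 3 PRDM13-OE dox retinas (2.19 to 3.87 CPM) lie below the 3 wildtype dox retinas (6.85 to 8.52 CPM), while the *Slc18a3* and *Chrna4* panels show overlapping groups.

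Among the transmitter genes, *Slc5a7* alone passed the test. In the PRDM13-OE dox retinas of mice 1, 2 and 3, *Slc5a7* stood at 17.2, 17.4 and 19.0 CPM, against 24, 21.7 and 23.7 in wildtype dox, 25.4, 20.8 and 16.7 in untreated PRDM13-OE and 23.1, 21.0 and 23.2 in untreated wildtype. The PRDM13-OE dox values lay below all of wildtype dox, but untreated PRDM13-OE retina 3 was lower still. The log2-fold change was −0.38 ± 0.08 (SE; adjusted p = 0.00978, edgeR).

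*Chat* was 15.3, 17.9 and 18.9 CPM in PRDM13-OE dox retinas and 18.8, 21.1 and 21.8 CPM in wildtype dox retinas, so the groups just overlapped, and its log2-fold change of −0.25 (95% interval −0.46 to −0.03, adjusted p = 0.126, edgeR) did not pass. *Slc18a3*, which shares the locus, was 21.9, 24.1 and 23.0 CPM against 25.7, 20.6 and 23.8, a log2-fold change of −0.03 (95% interval −0.23 to 0.17, adjusted p = 0.888, edgeR). The 3 genes of the same cell class thus differed in whether they passed. Whether their changes differ from each other was not tested. *Slc18a3* reads lie inside a *Chat* intron, and whether unspliced *Chat* RNA adds to its counts was not tested.

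Of the alpha subunits, *Chrna6* and *Chrna5* passed by adjusted p. *Chrna6* stood at 150.8, 140.4 and 137.1 CPM in PRDM13-OE dox retinas and at 171.9, 159.4 and 187.8 in wildtype dox retinas, without overlap, for a log2-fold change of −0.28 ± 0.07 (SE; adjusted p = 0.0194, edgeR). Untreated retinas held 157.8 to 168.7 CPM in PRDM13-OE and 156.5 to 190.3 in wildtype, also above the 3 PRDM13-OE dox values. *Chrna6* was therefore the most abundant transcript of the set and fell by a small amount.

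*Chrna5*, the accessory alpha subunit, was 4.19, 5.27 and 4.25 CPM in PRDM13-OE dox retinas against 9.38, 7.73 and 5.96 in wildtype dox retinas, a log2-fold change of −0.75 ± 0.18 (SE; adjusted p = 0.01995, edgeR). Its spread was wide elsewhere too, from 4.72 to 8.27 CPM in untreated PRDM13-OE and from 4.82 to 9.55 in untreated wildtype, and these overlapped the PRDM13-OE dox range. The highest wildtype dox values of *Chrna5* were in mice 1 and 2, whose retinas also held the most crystallin reads. Without those 2 libraries the log2-fold change of *Chrna5* was −0.40 (adjusted p = 0.357, edgeR). With the crystallin sum as a covariate over the 12 retinas it was 0.03 (adjusted p = 0.987).

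*Chrna3* ranged from 10.3 to 11.0 CPM in PRDM13-OE dox retinas and from 9.39 to 13.9 in wildtype dox retinas, a log2-fold change of −0.15 (95% interval −0.46 to 0.16, adjusted p = 0.547, edgeR). *Chrna4* ranged from 36.8 to 42.8 and from 39.7 to 41.6 CPM, with a log2-fold change of −0.06 (95% interval −0.21 to 0.09, adjusted p = 0.635, edgeR). These intervals leave out a halving for both genes.

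Of the beta subunits, *Chrnb3* and *Chrnb4* passed and *Chrnb2* did not. *Chrnb3*, the accessory beta subunit, was 84.9, 87.5 and 84.1 CPM in PRDM13-OE dox retinas and 108.1, 105.8 and 111.9 in wildtype dox retinas. The groups were far apart for their spread, and the untreated retinas (93.4 to 111.6 CPM in PRDM13-OE, 95.3 to 119.0 in wildtype) were all above PRDM13-OE dox as well. The log2-fold change was −0.35 ± 0.05 (SE; adjusted p = 0.00134, edgeR), or 21.6% lower.

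*Chrnb2*, the common partner of alpha4 and alpha6, ranged from 96.3 to 108.1 CPM in PRDM13-OE dox retinas and from 103.4 to 113.0 in wildtype dox retinas, a log2-fold change of −0.13 (95% interval −0.27 to 0.01, adjusted p = 0.224, edgeR). Its 3′ part overlaps *Adar* on the opposite strand over 7252 bases, and whether the libraries keep strand is not given in the sources used here, so its counts may include *Adar* reads.

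*Chrnb4* stood at 2.19, 3.46 and 3.87 CPM in PRDM13-OE dox retinas 1, 2 and 3, from 37, 63 and 72 counts. Wildtype dox retinas held 8.52, 7.35 and 6.85 CPM, from 148, 137 and 116 counts. The log2-fold change was −1.25 ± 0.20 (SE; 95% interval −1.70 to −0.81, adjusted p = 0.00188, edgeR). The groups did not overlap, and the call held in 6 of 6 fits that left out 1 library, with values from −1.43 to −1.06, but in none of the 3 fits with a tissue covariate (−0.83 to −0.53). The study itself named *Chrnb4* among its changed amacrine genes from these same libraries, so this is not independent evidence.

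Untreated wildtype retinas held 6.72, 5.30 and 5.91 CPM of *Chrnb4*, and untreated PRDM13-OE retinas held 8.21, 3.85 and 6.88. The second of these, mouse 2, was level with the highest PRDM13-OE dox retina, so the PRDM13-OE groups overlapped.

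**Figure D2:**
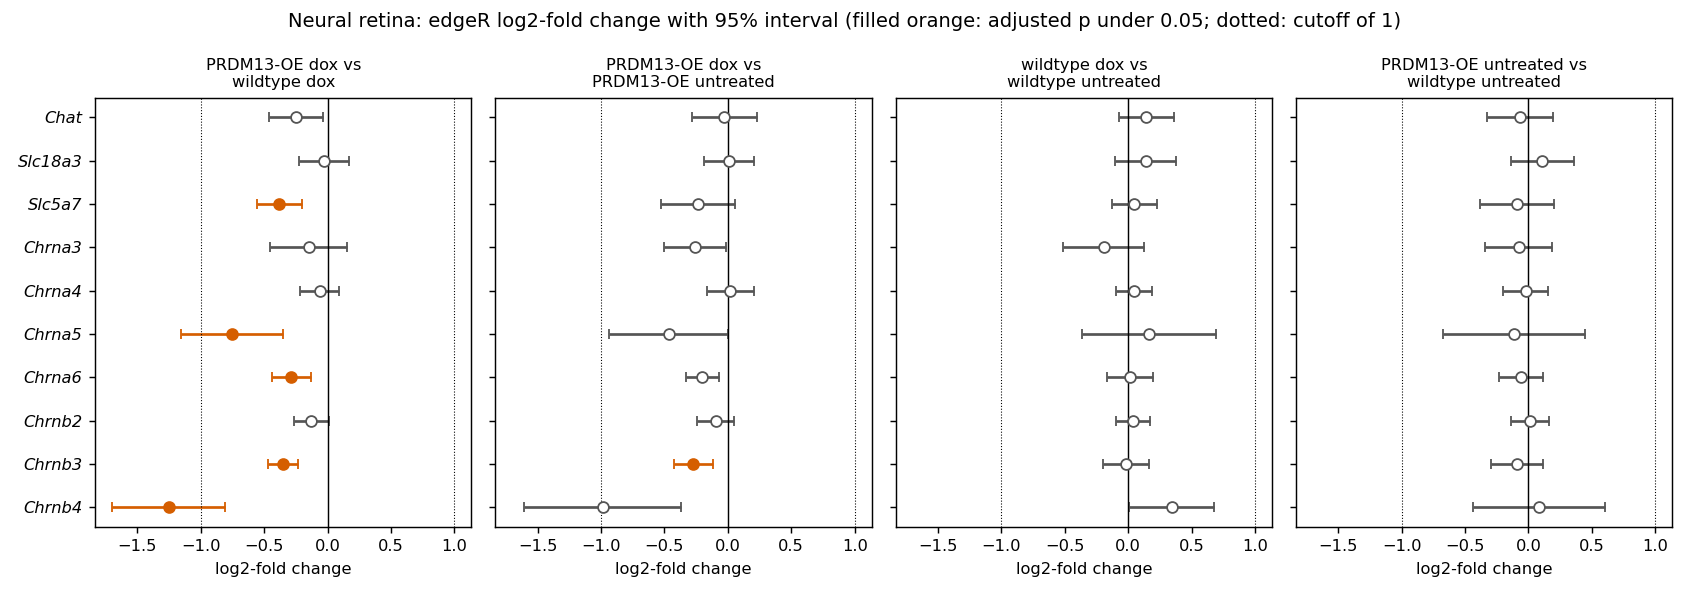
Log2-fold change (x axis) of each gene (y axis) in 4 comparisons of neural retina groups, with 95% intervals, filled orange where the adjusted p (edgeR) is under 0.05 and with dotted lines at the cutoff of 1. Between PRDM13-OE dox and wildtype dox all 10 points lie below 0, although *Slc18a3* and *Chrna4* turn positive when library size replaces TMM factors, *Slc18a3* also with the RPE or ciliary covariate or without wildtype dox retina 1, and *Chrna5* with the crystallin covariate. *Chrnb4* at −1.25 lies past the dotted line.

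All 10 members had a log2-fold change below 0 in this comparison, with a median of −0.27, against a median of 0.01 and 49.2% below 0 over all genes tested. The sign did not hold throughout for 3 of them. With library size in place of TMM factors *Slc18a3* and *Chrna4* turned to 0.06 and 0.03. *Slc18a3* was also above 0 with the RPE and pigment covariate (0.0098), with the ciliary body and iris covariate (0.06) and without wildtype dox retina 1 (0.04), and *Chrna5* with the crystallin covariate (0.03).

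Other marker sums also differed between these groups. The summed CPM of 8 RPE and pigment genes was 605.8 to 628.1 in PRDM13-OE dox retinas and 810.1 to 850.7 in wildtype dox retinas, and 5 of the 8 genes were lower by adjusted p, with *Tyrp1* and *Pmel* called. In the retinas this sum was mostly *Rlbp1*, at 8451 to 13939 counts, against at most 2235 for *Ttr*. Which cells those *Rlbp1* reads came from was not tested, so the sum need not stand for RPE tissue. Of the 4 ciliary body and iris genes, which include *Wfdc1*, *Opn5* and *Msx1*, 3 were tested, 2 were lower by adjusted p and *Msx1* was called. Their sum was 4.43, 10.2 and 9.03 CPM in PRDM13-OE dox retinas and 17.2, 17.2 and 13.6 CPM in wildtype dox retinas, with *Opn5* at 0 to 3 counts. Of the 7 rod genes 5 were lower by adjusted p, with a sum of 46082 to 52223 CPM in PRDM13-OE dox against 62546 to 65132 in wildtype dox. With the crystallin, the RPE and pigment, or the ciliary body and iris sum as a covariate over the 12 retinas (the rod sum was not fitted), the log2-fold change of *Chrnb4* was −0.83 for crystallin (adjusted p = 0.343, edgeR), −0.64 for RPE and pigment (adjusted p = 0.391) and −0.53 for ciliary body and iris (adjusted p = 0.191). None of the 10 members had an adjusted p under 0.05 in these 3 fits, and the share of all genes passing in them is not given here. Each covariate sum lay apart between the groups, so these fits separate covariate from genotype poorly. *Chrnb3* went from −0.35 ± 0.05 to −0.43 ± 0.12 (SE) with RPE and pigment, a larger fall with a wider error. For crystallin, RPE and pigment, and ciliary body and iris in turn, the adjusted p was 0.0715, 0.262 and 0.0791 for *Chrna6*, 0.167, 0.0708 and 0.0914 for *Chrnb3*, and 0.39, 0.637 and 0.416 for *Slc5a7*, with log2-fold changes of −0.43 to −0.28, −0.43 to −0.36 and −0.41 to −0.22. *Chrna5* was at an adjusted p of 0.665 with RPE and pigment and 0.765 with ciliary body and iris. In a fit without wildtype dox retinas 1 and 2, which leaves 1 wildtype dox retina and takes the spread from the other groups, *Chrnb4* was at −1.12 (adjusted p = 0.0178) and was called. Beyond these fits, the part of other tissue in these results was not tested.

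The remaining retina comparisons separate dox from the cassette. In wildtype mice, dox against no treatment gave 0 members called by edgeR, where 0.00485% of genes tested were called. One member, *Chrnb4*, had an unadjusted p under 0.05, as did 9.32% of all genes, with a log2-fold change of 0.34 ± 0.15 (SE; adjusted p = 0.528). Its 3 wildtype dox values were all above the 3 untreated ones, but with the ciliary body and iris covariate it was at −0.05 (adjusted p = 0.964). That sum was 13.6 to 17.2 CPM with dox and 8.31 to 13.4 untreated, and the RPE and pigment sum 810.1 to 850.7 and 690.3 to 758.8, neither overlapping. DESeq2 also called 0 members here.

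Without dox, PRDM13-OE and wildtype retinas gave 0 members called by edgeR and by DESeq2, with 0.0% of all genes called by edgeR, and 0 members had an unadjusted p under 0.05, against 3.76% of all genes. The log2-fold changes ran from −0.12 for *Chrna5* to 0.11 for *Slc18a3*. The interval for *Chrnb4*, −0.44 to 0.61, was the widest after that of *Chrna5*.

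Within PRDM13-OE, dox against no treatment called 0 members (1.04% of genes tested were called). *Chrnb3* was lower by adjusted p, at −0.27 ± 0.07 (SE; adjusted p = 0.0473, edgeR), where 2.96% of genes were lower by adjusted p alone. That sat at the threshold: *Chrnb3* passed in 1 of 6 fits that left out 1 library (−0.34 to −0.21, adjusted p = 0.00937 to 0.179), and the replicate block gave an adjusted p of 0.0518. With the crystallin, RPE and pigment, and ciliary body and iris covariates the adjusted p (edgeR) was 0.0748, 0.109 and 0.116. Of the alternative fits 11 weakened the *Chrnb3* result and 5 left it the same. *Chrnb4* had a log2-fold change of −0.99 ± 0.28 (SE; adjusted p = 0.074, edgeR) and did not pass, and DESeq2 gave an adjusted p of 0.0134 with a fold change just short of the cutoff. Unadjusted p values under 0.05 were found for 4 members (*Chrna3*, *Chrna6*, *Chrnb3* and *Chrnb4*) and for 15.6% of all genes. Without untreated PRDM13-OE retina 2, in which *Chrnb4* was 3.85 CPM, *Chrnb4* was called at −1.25 (adjusted p = 0.00757). This comparison and the one against wildtype dox share the PRDM13-OE dox retinas. Here too the rod sum was lower with dox (46082 to 52223 against 62309 to 68577 CPM). So were the pan-amacrine (1212 to 1235 against 1251 to 1370) and retinal ganglion sums (1345 to 1458 against 1466 to 1619). The starburst, crystallin, RPE and pigment, and ciliary body and iris sums overlapped. The part of these cells in the result was not tested.

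The response to dox differed between genotypes for *Chrnb4*, with an interaction of −1.33 ± 0.34 on the log2 scale (SE; 95% interval −2.04 to −0.61, adjusted p = 0.0414, edgeR over the 12 retinas). It was the only member called, and 0.87% of genes tested were called. The call sat at the threshold. With a replicate block on the mouse number the value was −1.30 (adjusted p = 0.0508), and 3 of the 12 fits that left out 1 library kept the call, with values from −1.59 to −1.09. The call was also lost with library size (−1.26, adjusted p = 0.0502), without wildtype dox retinas 1 and 2 (−1.19, adjusted p = 0.267), and with the crystallin (−1.06, adjusted p = 0.219), RPE and pigment (−0.54, adjusted p = 0.7) or ciliary body and iris covariate (−0.51, adjusted p = 0.443). DESeq2 kept it, at −1.34 (adjusted p = 0.00365). *Chrna5*, at −0.63 ± 0.35 (SE; adjusted p = 0.44), and *Chrnb3*, at −0.25 ± 0.11 (SE; adjusted p = 0.326), did not pass.

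The other genes of the pathway are 9 further nicotinic subunits, 5 muscarinic receptors, 4 genes of acetylcholine hydrolysis and 7 chaperones and prototoxins of nicotinic receptors, 25 in all. Between PRDM13-OE dox and wildtype dox retinas none of the 20 tested was called by edgeR, and 3 were lower by adjusted p: *Chrm2*, *Lynx1* and *Tmem35a*. *Chrm2*, a muscarinic receptor, fell by 0.42 ± 0.10 on the log2 scale (SE; adjusted p = 0.0203). *Lynx1*, a membrane-tethered modulator of nicotinic receptors, fell by 0.26 ± 0.07 (adjusted p = 0.0249), and *Tmem35a*, a chaperone of nicotinic receptors also called NACHO, fell by 0.27 ± 0.07 (adjusted p = 0.0254). *Ache*, which breaks acetylcholine down, was at −0.06 ± 0.06 (SE; adjusted p = 0.526), and *Chrna7*, which forms receptors of 1 kind of subunit, was at 0.11 ± 0.12 (SE; adjusted p = 0.605). Of the 9 further subunits 4 had enough reads to be tested. *Chrnd* and *Chrng*, subunits of the muscle receptor, had at most 2 counts in any retina, and *Chrna9* had 0 counts in all 12, which allows up to 3 counts each.

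*Chrnb4* was followed most closely across the 12 retinas by genes other than its fellow subunits. Over 14852 genes with a mean of at least 1 CPM, the highest Pearson correlations with *Chrnb4* (log2(CPM + 1), 12 retinas of 4 groups that differ in mean) were those of *Col9a3* (0.98), *Bmp7* (0.97), *Fbln5* (0.97), *Arhgef16* (0.95) and *Necab2* (0.95). *Col9a3* encodes a chain of type IX collagen, *Bmp7* a bone morphogenetic protein, *Fbln5* an elastic fibre protein, *Arhgef16* a guanine nucleotide exchange factor and *Necab2* a neuronal calcium-binding protein. *Col9a3* was 8.44 ± 3.17 CPM in PRDM13-OE dox retinas and 21.4 ± 2.38 in wildtype dox retinas (SD, n = 3). In untreated wildtype mice it was lower in retina than in eye cup by a log2-fold change of −4.99, and all 5 genes were lower in retina in that comparison, from −5.34 for *Fbln5* to −0.88 for *Necab2*. Among the members *Chrna5* came closest to *Chrnb4*, at 0.80 and rank 207, then *Slc5a7* (0.69), *Chrnb3* (0.63) and *Chrna6* (0.55). *Chrna3* was at 0.48, *Chrnb2* at 0.39, *Chat* at 0.34, *Slc18a3* at 0.10 and *Chrna4* at 0.07.

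Among the genes that followed *Chat* most closely were *Kctd21* (0.93), *Syt6* (0.91), *Phf3* (0.89) and *Phactr4* (0.89), by the same measure. None of these 4 passed the test between PRDM13-OE dox and wildtype dox retinas. *Slc18a3* followed *Chat* at 0.29 and *Slc5a7* at 0.53 in the retinas, where all of them varied little.

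The neural retina and the eye cup of untreated wildtype mice were compared to see where the members are read. *Chrnb4* was lower in retina and the other 9 were higher. All 10 were called, where 45.2% of genes tested were called, 19.3% higher in retina and 25.9% lower. *Chrnb4* stood at 6.72, 5.30 and 5.91 CPM in the retinas and at 19.7, 30.6 and 40.7 CPM in the eye cups of the same mice, a log2-fold change of −2.57 ± 0.28 (SE; adjusted p = 0.0002, edgeR). All 3 eye cups were above all 3 retinas.

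The transmitter genes were higher in retina by log2-fold changes of 3.54 ± 0.67 for *Chat*, 3.40 ± 0.86 for *Slc5a7* and 2.86 ± 0.76 for *Slc18a3* (SE; adjusted p = 0.00286, 0.0106 and 0.0127, edgeR). The subunits other than *Chrnb4* were higher by 2.09 (*Chrna3*) to 3.81 (*Chrna5*). The untreated wildtype eye cups had rod sums of 21345, 2673 and 10742 CPM, and *Chrna6* in them was 32.3, 0.73 and 10.8 CPM. The order of the eye cups was the same for both. Without untreated wildtype eye cup 3, *Chrna6* was no longer past the test (adjusted p = 0.0853). Without untreated wildtype eye cup 1, which had the highest rod sum of the 3, the 10 calls held and 5 log2-fold changes grew by more than 1.5 times on the linear scale: *Slc5a7* to 5.01, *Chrna6* from 3.29 to 4.66, *Chrnb2* from 3.44 to 4.66, *Chat* to 4.29 and *Chrnb3* from 2.80 to 3.48. With the animal as a replicate block *Chrna6* was at 4.09.

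Of the other pathway genes tested, 11 were called higher in retina and none was called lower. *Chrm5* (3.51 ± 1.03), *Chrna2* (2.83 ± 0.42), *Ache* (2.49 ± 0.63), *Ly6h* (2.27 ± 0.47), *Tmem35a* (2.18 ± 0.43) and *Chrm2* (2.10 ± 0.31) had log2-fold changes above 2 (SE). *Chrna7*, *Lynx1*, *Ric3*, *Chrm3* and *Prima1* lay between 1.18 and 1.98. *Chrnb1*, the beta subunit of the muscle receptor, was lower in retina at −0.63 ± 0.22 (SE; adjusted p = 0.0364), short of the cutoff.

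In the eye cup by FPKM, *Chrnb4* led the set at 8.71 ± 2.97 (SD, n = 3), ahead of *Chrna6* at 5.47 ± 6.10, with overlapping ranges between all neighbours in the order. The alpha subunit its product pairs with, *Chrna3*, was at 0.53 ± 0.35 FPKM, and *Chrna5* was last at 0.14 ± 0.04. *Chrnb4* is best known from autonomic ganglia and the habenula. The autonomic markers *Phox2a* and *Hand2* had at most 4 and 0 counts in any eye cup, and the sum of the 6 autonomic genes (1.19 to 8.88 CPM outside untreated wildtype eye cup 2, at 0.46) came mostly from *Th* and *Prph*.

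**Figure D3:**
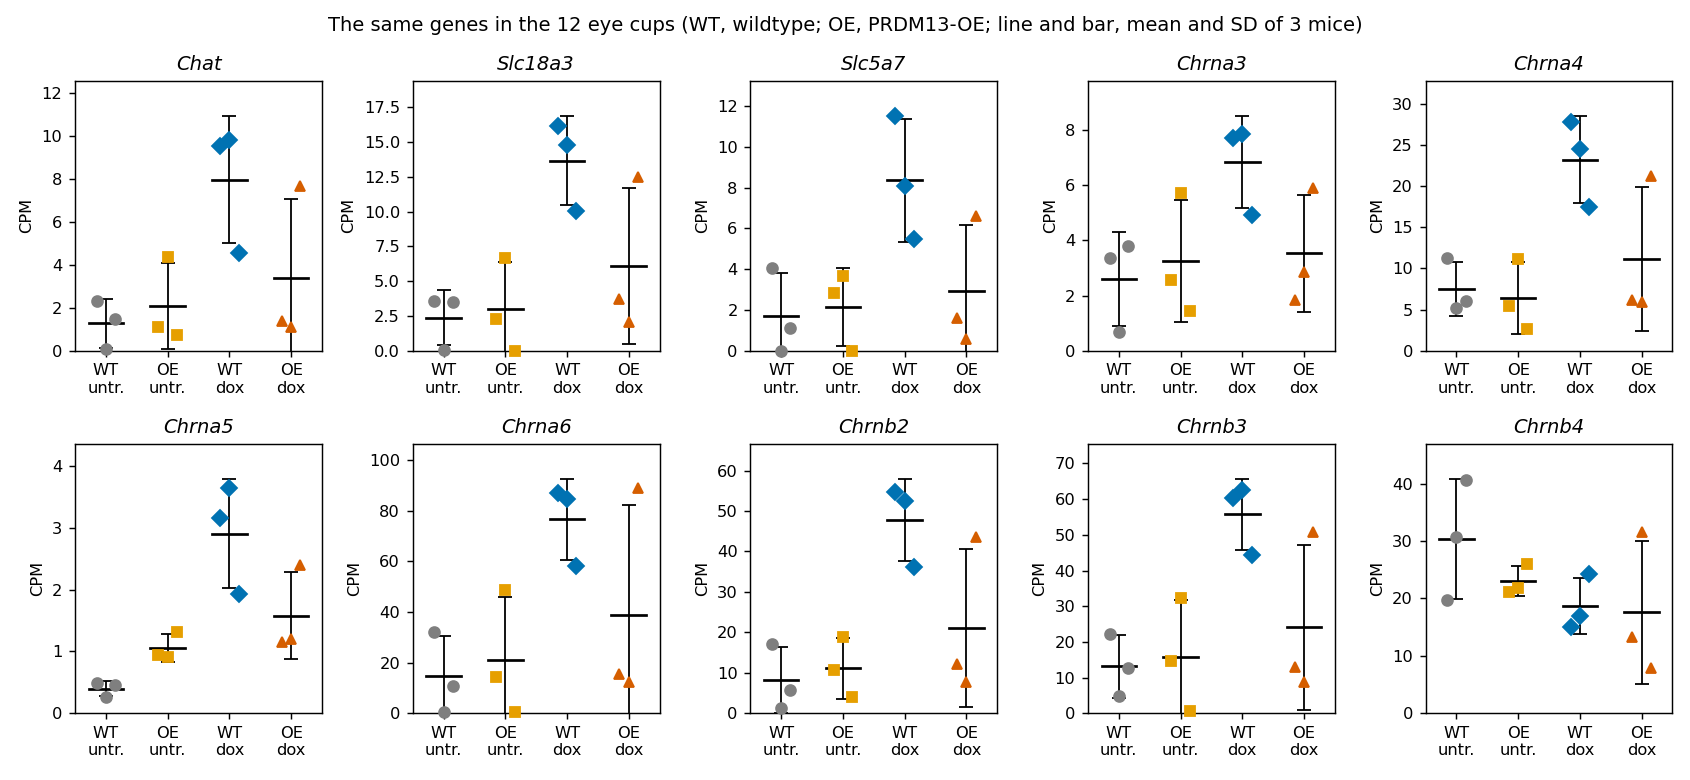
Level of each of the 10 genes in the 12 eye cups (CPM, y axis from 0), with 1 point per mouse in 4 groups and a line and bar for the mean and SD of 3 mice (bars end at 0). For 9 genes the highest point is a wildtype dox mouse or PRDM13-OE dox mouse 3 (*Chrna6* at 88.7 CPM), while in the *Chrnb4* panel PRDM13-OE dox mouse 3 is lowest at 7.89 CPM.

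Across the 12 eye cups, *Chat* was highest in the 3 libraries with the most rod RNA and *Chrnb4* was not. *Chat* was 9.53, 9.81 and 4.55 CPM in wildtype dox eye cups and 1.38, 1.08 and 7.65 in PRDM13-OE dox eye cups, against rod sums of 42501, 32348 and 21703 and of 10358, 4684 and 32667. The eye cup with the highest value in each group was thus one of its 2 highest by rod sum. *Chrna5* did not keep to that order, at 0.48 CPM in untreated wildtype eye cup 1 (rod sum 21345) and 1.19 CPM in PRDM13-OE dox eye cup 2 (rod sum 4684). In untreated eye cups *Chat* was 1.09, 4.38 and 0.75 CPM in PRDM13-OE and 2.33, 0.07 and 1.46 in wildtype. *Slc5a7* had 0 counts in untreated PRDM13-OE mouse 3 and untreated wildtype mouse 2, and *Slc18a3* had 0 and 1, where 0 allows up to 3 counts.

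*Chrnb4* was 15.1, 16.9 and 24.2 CPM in wildtype dox eye cups, 13.3, 31.6 and 7.89 in PRDM13-OE dox, 21.1, 21.8 and 25.9 in untreated PRDM13-OE and 19.7, 30.6 and 40.7 in untreated wildtype. Over the 12 eye cups its Pearson correlation with the other members, which share the libraries' tissue mix, ran from −0.67 to −0.42. *Bmp7* was again among the 5 genes most like it (0.96), behind *Gldc* (0.98) and *Glb1* (0.96). These eye cup correlations were chosen after the values were seen.

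**Figure D4:**
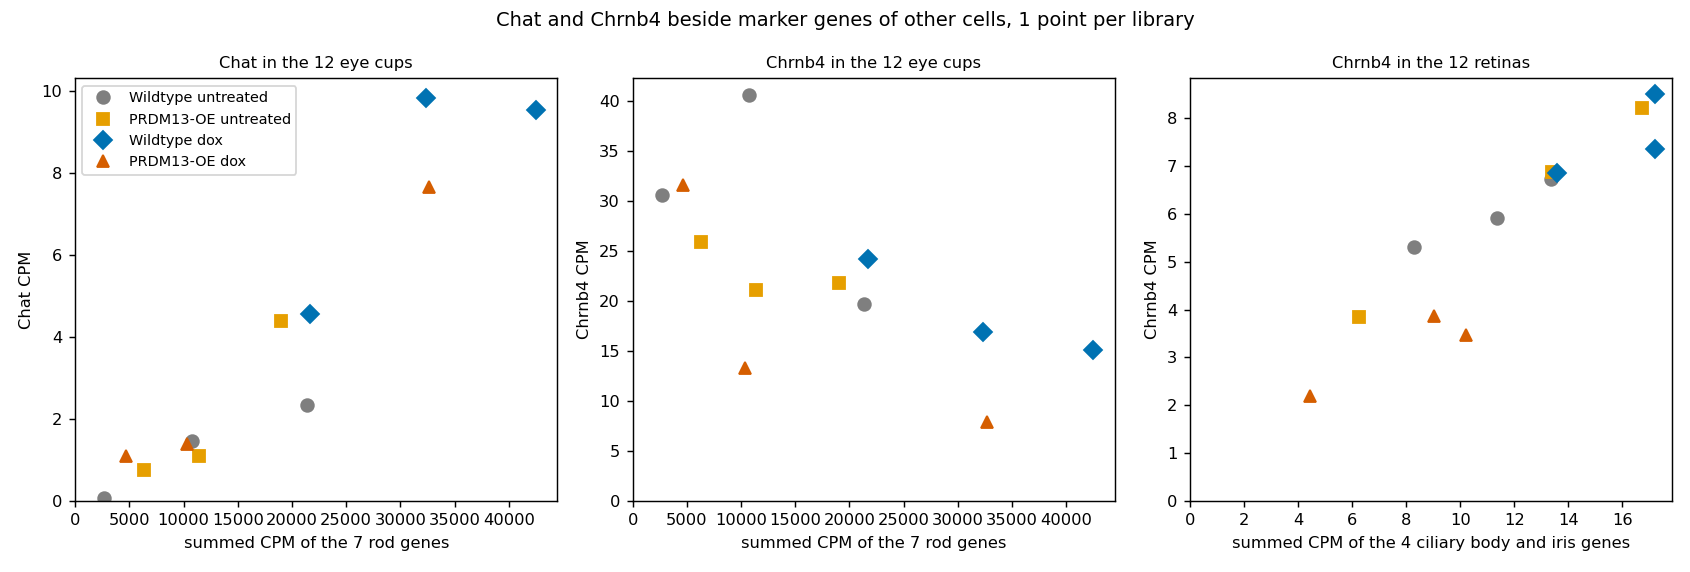
*Chat* (left) and *Chrnb4* (middle) in the 12 eye cups against the summed CPM of 7 rod genes, and *Chrnb4* in the 12 retinas against the summed CPM of 4 ciliary body and iris genes (right), 1 point per library, linear axes from 0. *Chat* is at 9.53 CPM where the rod sum is highest, *Chrnb4* is at 40.7 CPM where the rod sum is 10742, and in the retinas the lowest *Chrnb4* value (2.19 CPM) is in the library with the lowest ciliary body and iris sum (4.43 CPM).

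Between PRDM13-OE dox and wildtype dox eye cups edgeR and DESeq2 called 0 members. Of all genes tested, 0.0184% were called by edgeR, and 0 members had an unadjusted p under 0.05, against 8.24% of all genes. The log2-fold changes ran from −1.47 for *Slc5a7* to −0.05 for *Chrnb4*, with intervals that reached past 0 for all 10. The value rested on 1 library. Without PRDM13-OE dox eye cup 3, which had the highest rod sum of its group, 8 members were called lower, where 5.74% of genes tested were called lower, with *Slc5a7* at −2.81 (adjusted p = 0.0266, edgeR) and *Chrna6* at −2.38 (adjusted p = 0.0117). *Chrna5* and *Chrnb4* were not called in that fit, and *Chrnb4* was at 0.31 (adjusted p = 0.616). With the rod sum as a covariate over the 12 eye cups *Chat* was at 0.04 (adjusted p = 1.0) and *Chrnb4* at −0.83 (adjusted p = 0.832). The rod sum was itself lower in PRDM13-OE dox retinas, at 46082 to 52223 against 62546 to 65132 CPM in wildtype dox retinas. In this comparison the covariate thus need not stand for retinal RNA alone.

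Between wildtype dox and untreated wildtype eye cups edgeR called 0 members (0.0% of genes tested were called), although 8 members had an unadjusted p under 0.05, as did 29.9% of all genes. The log2-fold changes of 9 members, all but *Chrnb4*, were above 0, where 52.5% of all genes tested were below 0. They ran from 1.32 for *Chrna3* to 2.77 for *Chrna5* (adjusted p = 0.167 and 0.0673, edgeR). *Chrnb4* was at −0.72 (adjusted p = 0.16, edgeR). The rod sums of these groups were 21703 to 42501 and 2673 to 21345 CPM. Retinal ganglion sums (671.0 to 893.3 against 107.7 to 370.4 CPM) and pan-amacrine sums (695.7 to 883.6 against 379.7 to 510.4) were also higher with dox. RPE and pigment sums (8428 to 17494 against 23669 to 36746) and ciliary body and iris sums (51.9 to 68.8 against 76.7 to 156.1) were lower. The part of these cells was not tested. With the rod sum as a covariate over the 12 eye cups no member passed, with *Chat* at 0.90 (adjusted p = 0.884, edgeR), *Chrna6* at 0.63 (adjusted p = 0.939) and *Chrna5* at 2.37 (adjusted p = 0.884). *Chrnb4* turned to 0.05 (adjusted p = 0.998). DESeq2 called 5 members higher (*Chrna4*, *Chrna5*, *Chrnb2*, *Chrnb3* and *Chat*), where it called 9.03% of genes. Without untreated wildtype eye cup 1, edgeR called 6 members higher, where 7.26% of genes were called higher, and without wildtype dox eye cup 3 it called 2, *Chrna4* and *Chrna5*, where 1.69% of genes were called higher. With library size in place of TMM factors it called 3 higher, where 3.02% of genes were, and with no filter on counts 4, where 2.41% were.

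The 2 remaining eye cup comparisons called 0 members by edgeR and by DESeq2. Between untreated PRDM13-OE and untreated wildtype 0.0% of genes were called by edgeR, and 0 members had an unadjusted p under 0.05, against 1.87% of all genes. Between PRDM13-OE dox and untreated PRDM13-OE 0.0139% of genes were called, and 0 members had an unadjusted p under 0.05, against 4.14% of all genes. The widest interval, −3.47 to 4.07 for *Slc5a7* in the first of these, shows how little these eye cups can resolve.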

How the data were processed

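Novogene sequenced poly(A) RNA from the 24 libraries for the study. The submitters' processing notes name CASAVA, HISAT2 and GRCm39, and the counting tool and annotation release are not given in the sources used here. The authors deposited raw read counts and FPKM values per gene, and FPKM was used only to compare levels between genes. Relative to counts scaled by length and library total, the deposited FPKM had a median ratio of 0.863 to 1.255 in a library. The authors' columns for 12 comparisons (group means, fold changes and p-values) were not used.

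The deposited counts of 2 groups at a time were compared by quasi-likelihood tests with TMM factors (edgeR 4.0.16, R 4.3.3), on genes with at least 10 summed counts, with Benjamini-Hochberg adjustment over all genes tested. The interaction used all 12 retinas. A call needed an adjusted p below 0.05 together with a log2-fold change beyond 1 in size. DESeq2 1.42.0 and the other alternatives are given in the closing section. The tests were tried on simulated data. Covariates for RPE and pigment and for ciliary body and iris, and the fit without wildtype dox retinas 1 and 2, were added after seeing the data. The members and lists were chosen with earlier results of these data known. Named genes are the 10 members, the other pathway genes that passed a test, and the 5 genes most correlated with *Chrnb4* and with *Chat*. Other pathway and marker genes were named after their values were seen, and some genes under these rules are not reported here.

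Mouse numbers pair retina and eye cup of the same animal by the labels, with correlations of 0.117, 0.144 and 0.112 between paired deviations in untreated wildtype mice. Elsewhere equal numbers are different mice. No libraries were copies of each other, and p-values measure the spread between 3 mice. Intervals and limits on 0 counts cover counting and replicate error only. Figures were drawn with matplotlib 3.10.9.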

Additional observations from a re-analysis of the deposited data

Results flagged for a closer look

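The response of *Chrnb4* to dox in the neural retina differed between genotypes by a test of the difference itself, an edgeR interaction of −1.33 on the log2 scale (adjusted p = 0.0414, 12 retinas). The difference sat at the threshold: 3 of 12 fits that left out 1 library kept it, and it was lost with the replicate block (adjusted p = 0.0508), with library size (0.0502), with the crystallin covariate (0.219) and without wildtype dox retinas 1 and 2 (0.267). *Chrnb4* had a log2-fold change with dox of 0.34 in wildtype (−0.05 with the ciliary body and iris covariate) and of −0.99 in PRDM13-OE, and with edgeR neither of these differences passed an adjusted p of 0.05 on its own over all libraries. For PRDM13-OE, DESeq2 gave an adjusted p of 0.0134, and edgeR without untreated PRDM13-OE retina 2 gave 0.00757. The interaction was at −0.54 (adjusted p = 0.7) with the RPE and pigment sum as a covariate and at −0.51 (adjusted p = 0.443) with the ciliary body and iris sum. The cause was not tested further.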

How the results depend on the processing

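Between PRDM13-OE dox and wildtype dox retinas the count of 1 called member held with DESeq2, library size, no filter, filterByExpr, robust fitting, the replicate block and all 12 retinas in one fit. It became 5 with no fold cutoff and 0 with the crystallin, the RPE and pigment, or the ciliary body and iris covariate. Those sums did not overlap between these groups. *Chrna5* reversed with the crystallin covariate, to 0.026. The interaction count of 1 became 0 with library size, with the replicate block (−1.30 for *Chrnb4*), with each of the 3 covariates and without wildtype dox retinas 1 and 2, and leaving out 1 library gave 0 to 1. For PRDM13-OE dox against untreated PRDM13-OE retinas the count of 0 became 1 with no fold cutoff, and leaving out 1 library gave 0 to 1. For the eye cups, leaving out 1 library gave 0 to 8 members between PRDM13-OE dox and wildtype dox, and 0 to 6 between wildtype dox and untreated wildtype, where DESeq2 called 5 (9.03% of genes were called), library size 3 (3.02% called higher) and no filter 4 (2.41%). For untreated retina against eye cup, leaving out 1 library gave 9 to 10. In the paired fit on the animal number the 10 calls held, with *Chrnb4* at −2.52, and the replicate block changed no call beyond the interaction, though *Chrnb3* between the PRDM13-OE retina groups no longer passed by adjusted p (0.0518). Elsewhere equal numbers are different mice, whose deviations correlated from −0.549 to 0.652. The cause of these changes was not tested. *Chrnb4* had 37 to 148 counts per retina and *Chrna5* 71 to 196, the fewest of the members.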
